A study of Mus musculus with 3 samples.

Results

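Kinesins are motor proteins that walk along microtubules or take them apart. One set works in dividing cells, where its members push spindle poles apart, move chromosomes, correct their attachments and organise the midzone at which the daughter cells separate. Another set carries organelles, vesicles and RNA in non-dividing cells, and in muscle fibres kinesin-1 also spaces the nuclei along the fibre. Cells that leave the cell cycle to form myotubes are known to lose the mitotic set.

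The members were all rows of the read-count table whose symbol is Kif or Kifc followed by a digit and that had 10 or more raw reads summed over the libraries. Of 39 such rows in a table of 20162 genes, 37 reached that minimum. They carry 36 symbols, because Kif7 stands at 2 identifiers. The rows left out were Kif6, with 5 reads in all, and Kif26a, with 1. Cenpe also codes for a mitotic kinesin, but its symbol does not match, so it is not a member. By known function 12 members were placed with the mitotic kinesins, 15 with the transport kinesins and 10 in a remaining set of microtubule regulators and kinesins of cilia and centrioles.

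All 3 libraries came from C2C12 cells, an established mouse myoblast line. Each cell population was infected with a lentivirus, selected with puromycin and kept for 7 days in medium with 2% horse serum so that myotubes formed. A library with shRNA A (ShA) and a library with shRNA B (ShB), both directed against Tead4, were compared with a library with a control shRNA (ShSC). Each population is a selected pool carrying 1 shRNA, and no repeat culture is described. P-values therefore measure only the spread between libraries that carry different shRNAs, estimated largely over all genes together.

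The libraries held 19918954 counted reads with shRNA A, 15594305 with shRNA B and 16412139 with the control shRNA. Tead4, the gene that the shRNAs target and that codes for a TEAD transcription factor, had 397 and 170 reads with shRNAs A and B, against 1256 with the control shRNA (log2 fold change -2.35, SE 0.27, edgeR adjusted p = 2.82e-06). The differentiation label was matched by its markers: all 8 muscle markers were present in all 3 libraries, at summed levels of 13680 and 16850 TMM-scaled CPM with shRNAs A and B, against 23540 with the control shRNA. Of these markers 5 passed the edgeR test as lower and none as higher, against 4.48% and 5.34% of all tested genes. Myog was among the 5, with 6189 and 5747 reads, against 14683. Acta1, Mylpf and Des did not pass, with log2 fold changes of -0.26, -0.55 and -0.25. Of 9 markers of dividing cells, all 9 passed as higher. They summed to 203.5 and 200.8 CPM with shRNAs A and B, against 46.96 with the control shRNA. Of 7 markers of myoblasts or reserve cells 3 passed as higher and 1 as lower, with sums of 465.9 and 481.0, against 381.1. In such bulk RNA, more dividing cells and more of these transcripts per dividing cell cannot be told apart.

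Nearly all mitotic kinesins rose. In the edgeR quasi-likelihood test 11 of 12 passed as higher with Tead4 shRNA and none as lower, whereas 5.34% of all tested genes passed as higher, 4.48% as lower and 9.82% in either direction. Relative to the control library, the median of their log2 ratios was 2.15 for shRNA A and 2.33 for shRNA B. Over all genes with 10 or more reads the medians were 0.01 and 0.02. Summed over the set, there were 2674 and 2026 reads with shRNAs A and B, against 465 with the control shRNA, which is 4.59-fold and 4.44-fold more after scaling. The same 11 genes were at least 2-fold higher in both libraries with exact intervals that excluded no change, which held for 4.43% of genes with 10 or more reads. The test rests on 1 residual degree of freedom and assumes that the lone control library varies like the others. Its estimate of each gene's spread leans largely on the other genes, with 20.9 prior degrees of freedom. Where the dispersion was taken from all 3 libraries treated as a single group, the likelihood-ratio test called 0 of the 12, and 0 of all tested genes, while 9 of the 12 had an unadjusted p under 0.05. The 9 markers of dividing cells moved with this set, and their part in the result was not tested. Both ratios share the control library. Counting intervals here and below cover counting error only, because they rest on single libraries. PCR reads without molecular identifiers are not independent molecules, so the intervals may be too narrow even for that error.

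The kinesins of the spindle's framework were among those that rose. Kif11, or Eg5, slides antiparallel microtubules and separates the spindle poles. It had 346 and 223 reads with shRNAs A and B, against 69 with the control shRNA (log2 fold change 1.87, SE 0.33, edgeR adjusted p = 6.23e-04). Kif15, which helps to keep the spindle bipolar, had 127 and 64 reads with shRNAs A and B, against 13 with the control shRNA (2.67, SE 0.55). Both genes were clearly higher in each Tead4 shRNA library, and both were also higher with shRNA A than with shRNA B. The log2 difference between the Tead4 shRNAs was 0.64 for Kif15 (95% exact counting interval 0.19 to 1.09) and 0.28 for Kif11 (0.03 to 0.53). Kifc1, a minus-end-directed motor that draws microtubules together at the poles, had 117 and 86 reads with shRNAs A and B, against 17 with the control shRNA (2.41, SE 0.50). Its identifier is named Kifc5b in the later GENCODE M21 annotation. There, 25.9% of its 72-base transcript windows also occur in other genes, nearly all in the gene now named Kifc1, so reads of these copies may be mixed.

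Kinesins that act on chromosomes and kinetochores followed. Kif2c, also called MCAK, takes apart microtubules that are wrongly attached to kinetochores. It had 167 and 139 reads with shRNAs A and B, against 18 with the control shRNA, and its log2 fold change of 2.92 (SE 0.45, edgeR adjusted p = 1.49e-04) was the highest among the kinesins. Kif22, a chromokinesin that pushes chromosome arms outward, had 192 and 131 reads with shRNAs A and B, against 42 with the control shRNA (1.77, SE 0.39). Kif4, a chromokinesin that also sets the length of the midzone, had 150 and 111 reads with shRNAs A and B, against 41 with the control shRNA (1.5, SE 0.41, edgeR adjusted p = 0.0194). Kif4 was the mitotic call with the smallest log2 fold change, and DESeq2 did not call it (adjusted p = 0.127). Of its transcript windows 13.8% are shared with Pdzd11 on the opposite strand, which did not pass (0.00, SE 0.23).

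The kinesin-8 members Kif18a and Kif18b, which limit microtubule length at plus ends, gave different values. Kif18b, which acts on astral microtubules, had 94 and 107 reads with shRNAs A and B, against 17 with the control shRNA (log2 fold change 2.42, SE 0.51, edgeR adjusted p = 0.00307). Kif18a, which dampens chromosome movements at the metaphase plate, had 75 and 63 reads with shRNAs A and B, against 46 with the control shRNA. It was the mitotic kinesin that did not pass (0.43, SE 0.45, edgeR adjusted p = 0.666), and both exact intervals of its log2 ratio included 0 (-0.17 to 0.94 and -0.09 to 1.06). The upper ends of these intervals lie below the lower ends for Kif18b (1.39 and 1.94). The difference between these genes was not tested beyond counting error.

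Kinesins of cytokinesis, the final separation of daughter cells, also rose. Kif20a, or MKLP2, carries the chromosomal passenger complex to the midzone and had the most reads of the mitotic set. It had 800 and 656 reads with shRNAs A and B, against 105 with the control shRNA (log2 fold change 2.64, SE 0.28, edgeR adjusted p = 1.08e-06), and it took 29.9% and 32.4% of the mitotic kinesin reads, against 22.6%. The intervals of these shares were 28.2 to 31.7, 30.3 to 34.5 and 18.9 to 26.7. In GENCODE M21 it overlaps Cdc23 on the opposite strand over 1271 exon bases, and the library kit does not mark strand. Cdc23 itself had 1146 and 953 reads with shRNAs A and B, against 892 with the control shRNA, and did not pass (0.08, SE 0.22). Kif23, the motor of the centralspindlin complex, had 302 and 188 reads with shRNAs A and B, against 37 with the control shRNA (2.55, SE 0.38). Kif20b, a midzone relative of Kif20a, had 198 and 164 reads with shRNAs A and B, against 41 with the control shRNA (1.98, SE 0.38). Kif14, which works with citron kinase, had 106 and 94 reads with shRNAs A and B, against 19 with the control shRNA (2.24, SE 0.49). Each of these genes was higher in both Tead4 shRNA libraries than in the control library.

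**Figure D1:**
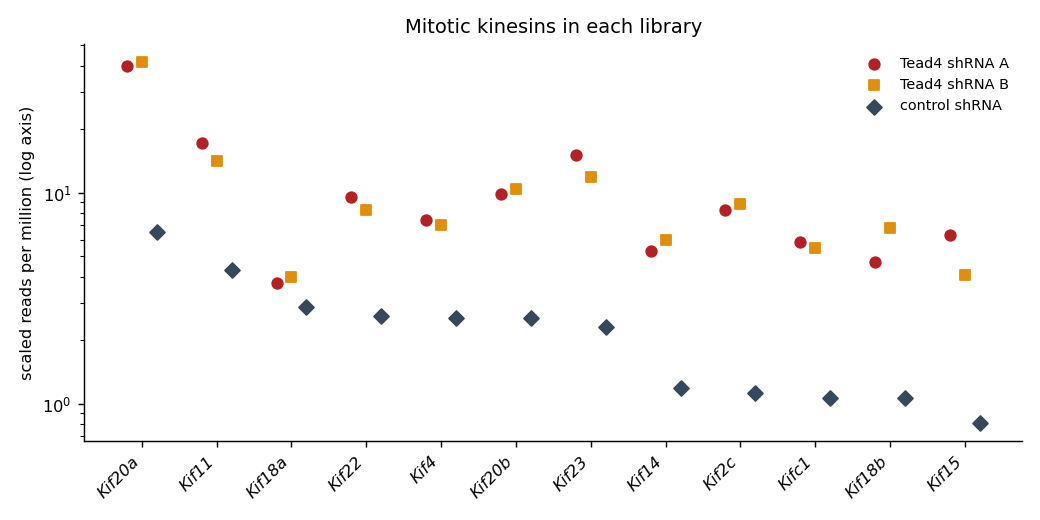
Scaled CPM (log axis) of the 12 mitotic kinesins; each point is 1 library, in the order Tead4 shRNA A, Tead4 shRNA B and control shRNA. For 11 genes both Tead4 shRNA points lie at least 2-fold above the control point, and for Kif18a, at 3.73 and 3.998 against 2.86, they lie close to it.

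The promoter windows of the mitotic kinesins were searched for short motifs, some of them known from cell cycle genes. The class was set by known function, so how often its windows hold such motifs does not depend on the changes in these libraries. RefSeq windows of GRCm38.p6, with 250 bases before and 50 after an annotated start, were used for 11 of the 12 mitotic genes, all but Kif20a. They were searched on both strands for the cell cycle genes homology region (CHR), TTTGAA, at which repressor and activator complexes of cell cycle genes are known to bind, and for CCAAT, the box bound by NF-Y. The CHR letters were found in 10 of the 11 windows, against 17.9% of all 32851 windows in the table. The CCAAT letters were in 7, against 37.4% of all windows, and both were in the same 7, against 6.95%. The window without CHR letters was that of Kif18a, the mitotic gene that did not pass. Outside the mitotic set, Kif26b passed with CHR letters and Kif5c passed without them. Kif27 and a further start of Kif1a held CHR letters and did not pass. Whether the letters bear on the calls was not tested. E2F letters (TTTGGCGC or TTTCCCGC) were in 2 mitotic windows, those of Kif15 and Kif18a, against 1.56% of all windows. The window counted for Kifc1 is that of Kifc5b, the later name of its identifier. The window of the gene now named Kifc1 was not used for this set. The MCAT letters CATTCC, to which TEAD factors are known to bind, were in none of the 11, against 14.7% of all windows. At that share few of 11 windows would hold them, and TEAD binding was not tested. A match in such a window is a description and not a bound site. The annotated starts were taken as given, and their use in these cells was not tested. For Kif14, Kif27 and a further start of Kif1a, the bases before the start look like the end of an intron. They are rich in T and C and end in AG. These windows may not be promoters, yet they are counted here and below.

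Of the transport kinesins, 10 genes had a window in the table, some with more than 1 start. Among their 12 windows, 1 held CHR letters (the second start of Kif1a), 4 held CCAAT and none held both. All windows held these at 17.9%, 37.4% and 6.95%. The 4 windows with CCAAT belong to 3 genes, because the windows of Kif1b overlap and hold the same letters. MCAT letters were in 2, those of Kif3b and Kif17, against 14.7% of all windows. To show what these letters look like, the 100 bases before the start are printed for 6 genes, among them the 3 mitotic genes whose CHR letters lie closest before the start. They are printed 5′ to 3′ on the gene's strand, with TTTGAA and CCAAT, or their complements TTCAAA and ATTGG, in capitals. Kif11 (chr19:37376282-37376381, plus strand), Kif22 (chr7:127042421-127042520, minus strand) and Kif15 (chr9:122950981-122951080, plus strand) rose. Kif18a (chr2:109280638-109280737, plus strand) is the mitotic kinesin that was not called. Kif26b (chr1:178529025-178529124, plus strand) rose without being a mitotic kinesin, and Kif3a (chr11:53567269-53567368, plus strand) is a transport kinesin that was not called.
Kif11: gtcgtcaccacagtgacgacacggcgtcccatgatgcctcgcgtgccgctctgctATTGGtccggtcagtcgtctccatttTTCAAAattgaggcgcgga
Kif22: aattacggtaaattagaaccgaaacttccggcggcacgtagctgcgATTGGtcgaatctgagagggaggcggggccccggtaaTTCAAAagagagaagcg
Kif15: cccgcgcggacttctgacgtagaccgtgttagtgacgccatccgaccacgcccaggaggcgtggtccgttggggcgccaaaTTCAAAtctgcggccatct
Kif18a: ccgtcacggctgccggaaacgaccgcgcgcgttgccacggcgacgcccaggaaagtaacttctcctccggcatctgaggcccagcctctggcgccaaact
Kif26b: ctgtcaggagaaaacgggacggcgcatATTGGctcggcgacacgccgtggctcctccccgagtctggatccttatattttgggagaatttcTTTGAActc
Kif3a: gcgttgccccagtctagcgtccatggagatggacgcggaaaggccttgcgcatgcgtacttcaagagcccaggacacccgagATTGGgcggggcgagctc

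In Kif11, Kif15 and Kif22 the CHR letters begin at positions -19, -19 and -17 from the start, on the reverse strand, and Kif15 and Kif22 hold a further copy at -234 and -215. The CHR letters of the other 7 mitotic windows lie elsewhere. In Kif23, Kif18b, Kif20b, Kif4 and Kifc1 they lie after the start, beginning at positions 3 (Kif23) to 30 (Kifc1), and in Kif2c and Kif14 they begin at -103 and -228. In Kif11 and Kif22 a CCAAT box lies upstream of them, beginning at -45 and -54. Kif26b has both motifs as well, with the CHR letters at -9, while Kif3a has CCAAT letters alone. Of the 9 windows of the remaining kinesins 2 held both motifs, those of Kif26b and Kif27.

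**Figure D2:**
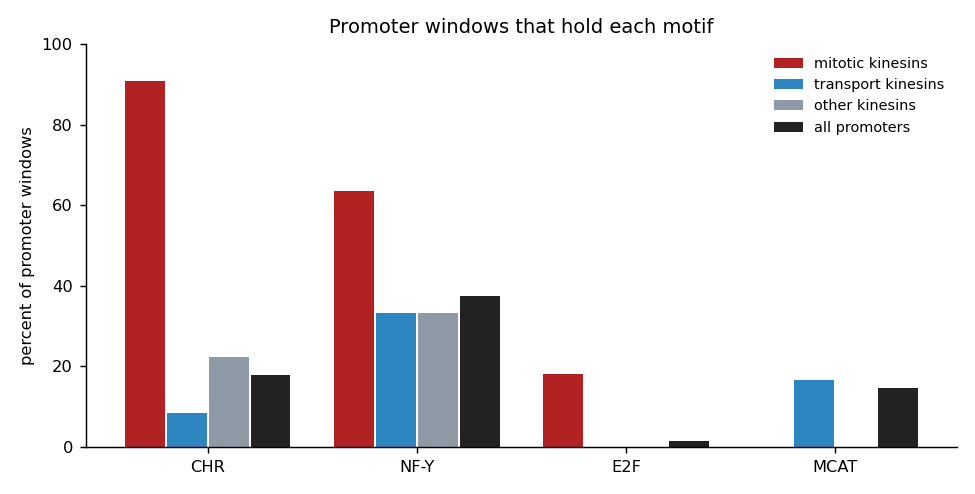
Percent of RefSeq promoter windows that hold each motif (CHR; NF-Y, the CCAAT box; E2F; MCAT) among mitotic kinesins (11 windows), transport kinesins (12), other kinesins (9) and all 32851 windows. CHR letters are in 90.9% of the mitotic windows, against 17.9% of all windows.

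The transport kinesins had medians close to the control level. Of 15 members 14 were tested, 1 passed as higher and none as lower, or 1 of 14 against the 5.34% of all tested genes that passed as higher. The medians of their log2 ratios were 0.13 for shRNA A and -0.15 for shRNA B, and their log2 ratios ran from -0.90 to 1.29 and from -0.67 to 1.09. In sum they had 35067 and 26031 reads with shRNAs A and B, against 30717 with the control shRNA. The scaled log2 ratio of the sum was -0.13 (exact interval -0.16 to -0.11) and -0.21 (-0.24 to -0.19). Summed over all genes with 10 or more reads, that ratio was -0.05 and -0.05. Kif5b, Kif1b and Kif1c held most of the transport reads, so the transport sum mainly describes these genes. With shRNA A the exact interval lay above no change for 7 members and below it for 6, against 31.2% and 30.8% of all genes with 10 or more reads. With shRNA B it lay above for 2 and below for 6, against 28.0% and 26.6% of genes. Intervals lay below no change in both libraries for 5 members and above it for 2, while 20.1% and 20.3% of all genes with 10 or more reads did so. The untested member, Kif17, had 8 and 6 reads with shRNAs A and B, against 8 with the control shRNA.

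**Figure D3:**
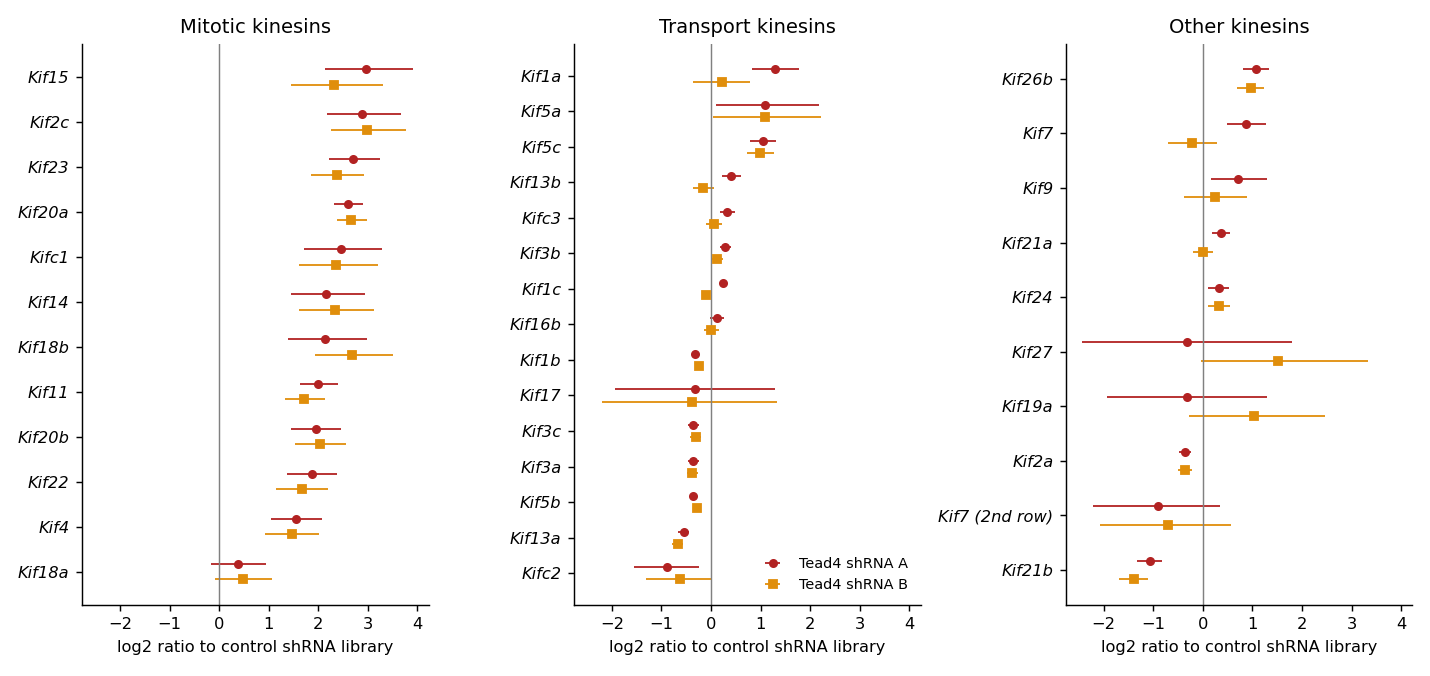
Log2 ratio of each member to the control shRNA library, with Tead4 shRNA A as circles and Tead4 shRNA B as squares; bars are 95% exact counting intervals and the grey line marks no change. All mitotic kinesins except Kif18a lie above 1 with both shRNAs, while most transport kinesins lie between -1 and 1.

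Kinesin-1, the main long-range transporter of organelles, has 3 heavy chain genes. Kif5b, the form that most cells use, had 8915 and 7448 reads with shRNAs A and B, against 9187 with the control shRNA. It did not pass the test (log2 fold change -0.32, SE 0.24, edgeR adjusted p = 0.486). Kif5c, known mainly from neurons, was the transport kinesin that rose, with 438 and 330 reads with shRNAs A and B, against 169 with the control shRNA (1.02, SE 0.27, edgeR adjusted p = 0.0163). DESeq2 did not call it (adjusted p = 0.0946). Kif5a, also known from neurons, had 32 and 25 reads with shRNAs A and B, against 12 with the control shRNA. Its log2 ratios of 1.09 and 1.09 were past 2-fold in both libraries, but it did not pass the test (adjusted p = 0.465). Kif5c made up 4.67% of kinesin-1 heavy chain reads with shRNA A (exact interval 4.25 to 5.11) and 4.23% for shRNA B (3.79 to 4.70), against 1.80% with the control shRNA (1.54 to 2.09). Kif5b still took 95.0% and 95.5% of these reads with shRNAs A and B, against 98.1% with the control shRNA. Of 7 neuronal markers listed, 5 had rows in the table, 3 were tested and none passed. Their summed level was 34.3 and 37.7 CPM with shRNAs A and B, against 46.3 with the control shRNA, and Syt1 was at 0 with shRNA B.

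Kinesin-2 drives transport along cilia and of some vesicles, as a pair of motor chains with the adaptor Kifap3. Kif3a, the shared chain, had 1425 and 1101 reads with shRNAs A and B, against 1457 with the control shRNA. Kif3b, its usual partner, had 1719 and 1193 reads with shRNAs A and B, against 1122 with the control shRNA. Kif3c, an alternative partner, had 1454 and 1172 reads with shRNAs A and B, against 1482 with the control shRNA. None passed the test, with log2 fold changes of -0.37 (SE 0.21), 0.21 (SE 0.22) and -0.33 (SE 0.22) for Kif3a, Kif3b and Kif3c. Kif3b took 54.2% of the Kif3b and Kif3c reads with shRNA A (interval 52.4 to 55.9) and 50.4% for shRNA B (48.4 to 52.5), against 43.1% with the control shRNA (41.2 to 45.02). These intervals cover counting error only, and 39.0% of the transcript windows of Kif3c are shared with antisense genes.

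Among the kinesin-3 members, which carry vesicles, endosomes and mitochondria, none passed. Kif1b, a carrier of mitochondria and vesicle precursors, had 7652 and 6297 reads with shRNAs A and B, against 7595 with the control shRNA (log2 fold change -0.28, SE 0.24). Kif1c, which moves vesicles between the Golgi and the cell margin, had 9241 and 5685 reads with shRNAs A and B, against 6250 with the control shRNA. Its 2 libraries pointed in opposite directions, with log2 ratios of 0.24 (0.19 to 0.29) for shRNA A and -0.11 (-0.16 to -0.06) for shRNA B. Kif1a, a carrier of synaptic vesicle precursors in neurons, had 156 and 58 reads with shRNAs A and B, against 51 with the control shRNA. Its interval excluded no change for shRNA A (0.82 to 1.77) but not for shRNA B (-0.36 to 0.78). Kif13a, an endosome motor, had the lowest log2 fold change of this family and came near the threshold (-0.61, SE 0.21, edgeR adjusted p = 0.0768). Kif13b had 651 and 344 reads with shRNAs A and B, against 390 with the control shRNA (0.16, SE 0.26). Its log2 ratios also had opposite signs, 0.41 (0.23 to 0.60) for shRNA A and -0.15 (-0.37 to 0.06) for shRNA B, and they differed by 0.57 (0.38 to 0.76). Kif16b, a motor of early endosomes, had a log2 fold change of 0.07 (SE 0.23). The minus-end-directed motors Kifc2 and Kifc3 did not pass either, at -0.76 (SE 0.52) and 0.21 (SE 0.23).

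The remaining set had 1 call of 10 in each direction, close to the 5.34% and 4.48% of all tested genes that passed as higher and as lower. Kif21b, a kinesin-4 member that regulates microtubule growth, fell: it had 210 and 131 reads with shRNAs A and B, against 351 with the control shRNA (log2 fold change -1.22, SE 0.27, edgeR adjusted p = 0.00519). It was the member that fell by at least 2-fold in both libraries, a size reached downward by 3.05% of genes with 10 or more reads. Its close relative Kif21a had 642 and 392 reads with shRNAs A and B, against 398 with the control shRNA, and did not pass (0.20, SE 0.25). Kif21b took 24.6% of the Kif21a and Kif21b reads with shRNA A (interval 21.8 to 27.7) and 25.0% for shRNA B (21.4 to 29.0), against 46.9% with the control shRNA (43.2 to 50.5). Kif26b, an atypical kinesin, rose with 445 and 324 reads with shRNAs A and B, against 169 with the control shRNA (1.02, SE 0.27, edgeR adjusted p = 0.0166). DESeq2 did not call Kif21b (adjusted p = 0.0503) or Kif26b (adjusted p = 0.0967).

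Kif2a, a microtubule depolymerase of spindles, cilia and neurons and a relative of Kif2c, had 995 and 783 reads with shRNAs A and B, against 1021 with the control shRNA. Kif24, which acts at centrioles, had 462 and 363 reads with shRNAs A and B, against 296 with the control shRNA. Neither passed, at log2 fold changes of -0.36 (SE 0.22) for Kif2a and 0.32 (SE 0.25) for Kif24. Other genes share 17.7% of the windows of Kif2a, mostly Dimt1 on the opposite strand, and an antisense gene shares 14.6% of those of Kif7. Kif7, a regulator of Hedgehog signalling in primary cilia, had 182 and 67 reads with shRNAs A and B, against 79 with the control shRNA. Its interval excluded no change for shRNA A (0.49 to 1.28) but not for shRNA B (-0.70 to 0.28). Its second identifier had 10 and 9 reads, against 15. Kif9, Kif19a and Kif27, known from motile cilia, had at most 84 reads in a library and did not pass. Kif19a had 8 and 16 reads with shRNAs A and B, against 8 with the control shRNA, and Kif27 had 5 and 14, against 5. The 4 of 5 markers of multiciliated cells with rows in the table summed to 0.795 and 0.762 CPM with shRNAs A and B, against 0.498 with the control shRNA. Rsph1 was at 0 with the control shRNA, and Tekt1 with shRNA A and the control shRNA.

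**Figure D4:**
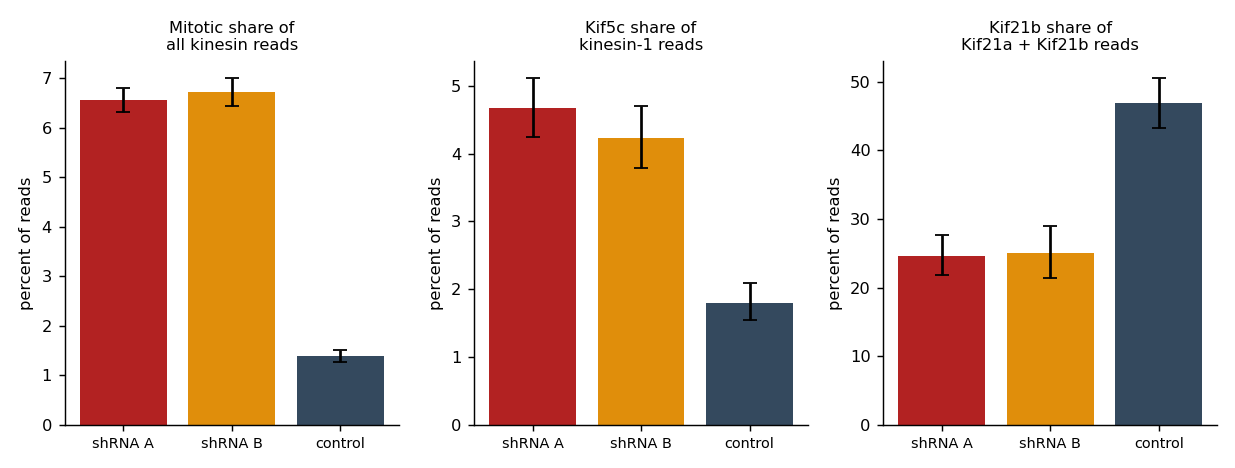
Percent of reads with 95% exact binomial intervals (bars from 0; 1 library each, Tead4 shRNA A, Tead4 shRNA B, control shRNA). Mitotic kinesins hold 6.56% and 6.71% of all kinesin reads against 1.39%, Kif5c 4.67% and 4.23% of kinesin-1 reads against 1.80%, and Kif21b 24.6% and 25.0% of Kif21a and Kif21b reads against 46.9%.

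Set against each other without any scaling between libraries, the classes shifted in their share of kinesin reads. Mitotic kinesins took 6.56% of the reads of all 37 members with shRNA A (exact interval 6.32 to 6.80) and 6.71% for shRNA B (6.43 to 7.00), against 1.39% with the control shRNA (1.26 to 1.52). Transport kinesins took 86.0% and 86.2% with shRNAs A and B, against 91.5% with the control shRNA. The kinesins together took a similar share of all counted reads, 0.205% and 0.194% with shRNAs A and B, against 0.205% with the control shRNA. Per length of exon in GENCODE M21, the control library's levels ran from 0.0735 (Kif15) to 1.51 (Kif20a) CPM per kilobase for mitotic kinesins. Kif5b stood at 71.7, Kif1c at 53.5, Kif1b at 26.9 and Kif3a at 25.3 on that scale. Each mitotic kinesin was far below these abundant transporters in that library. Other transport kinesins were low too, such as Kif5c at 1.47 and Kif5a at 0.107, so the classes overlapped. With shRNAs A and B, Kif20a reached 9.17 and 9.60 on that scale, and Kif5b had 55.5 and 59.2.

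The 2 Tead4 shRNAs gave like values for most mitotic kinesins. The median log2 ratio of shRNA A to shRNA B was 0.01 for mitotic and 0.06 for transport kinesins. Counting intervals of that ratio excluded no change for 3 mitotic kinesins in favour of shRNA A (Kif11, Kif23 and Kif15) and for 1 in favour of shRNA B (Kif18b). Of all genes with 10 or more reads, 24.1% and 23.8% did so in these directions. Among transport kinesins 6 were higher with shRNA A, with log2 ratios of shRNA A to shRNA B from 0.12 (Kif13a) to 1.08 (Kif1a), and Kif5b and Kif1b were lower by less than 0.1. Tead4 was lower with shRNA B than with shRNA A, with a log2 ratio of shRNA A to shRNA B of 0.87 (0.61 to 1.14).

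The genes with which kinesins work were read from lists of known partners. Of 26 tested partners of mitotic kinesins, 20 rose and none fell, and the median over the 26 was 1.75 on the log2 scale. Cenpe, itself a kinesin outside the symbol rule, is counted in this list. It had 345 and 213 reads with shRNAs A and B, against 51 with the control shRNA. Of all tested genes 5.34% passed as higher, and DESeq2 called 16 of these partners as higher. Of the 9 markers of dividing cells, Plk1 and Aurkb are also in this list. Anln, a scaffold of the cleavage furrow, rose by 1.75 (SE 0.25) with 1204 and 941 reads with shRNAs A and B, against 285 with the control shRNA. Tpx2, a spindle assembly factor, rose by 1.91 (SE 0.27), and Prc1, the midzone bundler that binds Kif4, rose by 1.75 (SE 0.27). Cit, the citron kinase, rose by 1.36 (SE 0.30). All 4 members tested of the chromosomal passenger complex rose: Aurkb, Incenp, Birc5 and Cdca8, by 1.11 (Incenp) to 2.42 (Birc5). Racgap1, the centralspindlin partner of Kif23, was not called (0.50, SE 0.24, edgeR adjusted p = 0.229), with 731 and 512 reads with shRNAs A and B, against 390 with the control shRNA. The passenger complex and Racgap1 were picked out after their values were seen.

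Of 25 tested partners of transport kinesins, 0 passed the edgeR test in either direction, with a median of -0.08. Of all tested genes 9.82% passed in either direction, so lists of this size would hold few calls at that share. The light chain Klc1 had a log2 fold change of -0.20 (SE 0.23), and the kinesin-1 activator Map7d1 (Mtap7d1 in the table) had 0.01 (SE 0.24). Kifap3, the kinesin-2 adaptor, had 0.13 (SE 0.23). Of 22 genes of dynein and dynactin, the motor that runs toward minus ends and its activator, 0 passed (median 0.03). The motor chain Dync1h1 had a log2 fold change of -0.33 (SE 0.25) and the adaptor Bicd2 had 0.21 (SE 0.24). Of 18 genes of intraflagellar transport, the trains that kinesin-2 moves in cilia, 0 passed (median 0.20), with Wdr35 at -0.02 (SE 0.22) and Ift122 at 0.20 (SE 0.24). DESeq2 also called 0, 0 and 0 of these lists, and at an unadjusted p under 0.05 edgeR gave 1 (Madd) for the transport partners, 0 for dynein and dynactin and 2 (Ift80 and Wdr19) for intraflagellar transport.

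Tubulins, the subunits of the track itself, rose in 5 of 14 tested members and fell in none, with a median of 0.54, while 5.34% of all tested genes passed as higher and 4.48% as lower. Tubb6 had 23757 and 18021 reads with shRNAs A and B, against 7512 with the control shRNA (log2 fold change 1.31, SE 0.26), and Tubb5 had 17483 and 11475, against 5992 (1.10, SE 0.26). Tubb2a rose by 1.06 (SE 0.25) and Tuba4a by 1.72 (SE 0.27). The fifth was Tubb2c. The neuronal Tubb3 had a log2 fold change of -0.22 (SE 0.25). Tubulin genes are closely alike in sequence, so reads may be split between them.

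**Figure D5:**
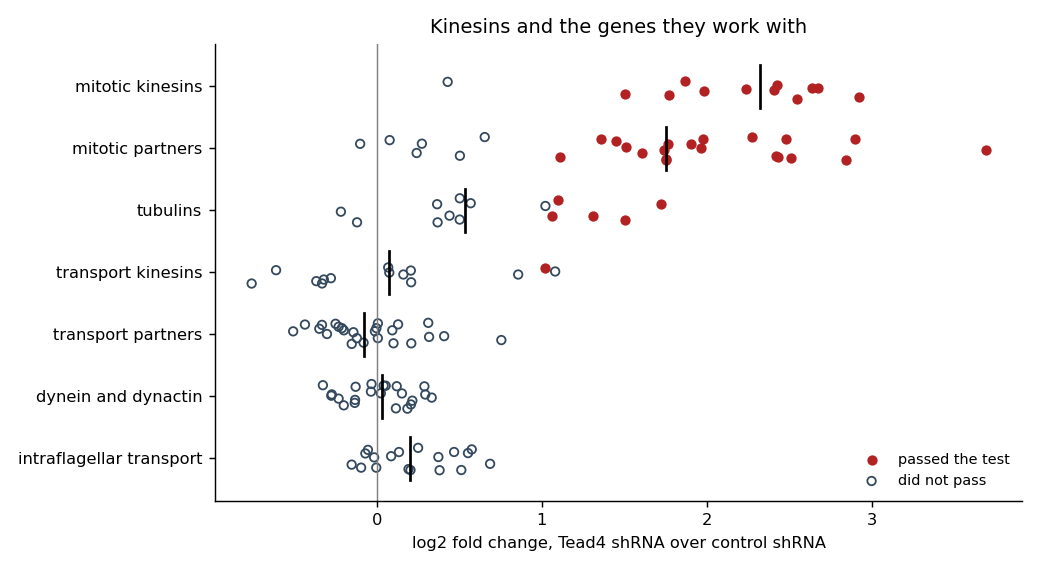
Log2 fold change (Tead4 shRNA over control shRNA, edgeR) of each tested gene in 7 lists; filled points passed the test, open points did not, and the black bar is the list's median. Medians are 2.32 for mitotic kinesins and 1.75 for their partners, against 0.07 for transport kinesins and -0.08 for theirs.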

How the data were processed

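Polyadenylated RNA of 3 C2C12 populations was sequenced as single-end 72-base reads without strand marking, per the labels' protocols. Per the submitters' processing notes, the tools were TopHat 1.0.12, Cufflinks 0.8.2 and DESeq, and the build was mm9. The way reads were assigned to genes is not given in the sources used here. For each gene the authors deposited raw read counts and a normalized score, which equals the count times 1 factor per library, rounded; only the counts were used. They were fitted with edgeR 4.0.16 in R 4.3.3 (filterByExpr, TMM scaling, quasi-likelihood F test) over 14478 tested genes, with Benjamini-Hochberg adjustment and a threshold of 0.05. The 2 Tead4 shRNA libraries leave 1 residual degree of freedom, beside 20.9 prior degrees of freedom estimated over the tested genes. Each SE was obtained from the fold change and its F value. Ratios of single libraries use TMM-scaled counts with 95% exact (Clopper-Pearson) intervals. Depth was 15594305 to 19918954 reads. Alternatives with DESeq2 1.42.0 and limma 3.58.1, other scalings, filters and classes were run, and the edgeR script was tested on simulated data. Exon lengths, overlaps and names come from GENCODE M21, which is not the authors' build, and promoters from RefSeq GRCm38.p6.

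Members and lists were chosen with earlier results of these data known. Every member is accounted for. Reads are given for members called or at least 2-fold in both libraries, for the 6 transport kinesins with most reads and for members whose libraries point in opposite directions with both intervals excluding no change, and for further members where a value helps. From each partner list the 4 called members with most reads are named, or 2 where none was called; others named there were picked after their values were seen.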

Additional observations from a re-analysis of the deposited data

How the results depend on the processing

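Leaving out 1 Tead4 shRNA library leaves no residual degrees of freedom, so it gives values without a test: class medians of 2.15 to 2.33 (mitotic), -0.15 to 0.13 (transport) and -0.00 to 0.13 (remaining kinesins). Kif1c ranged from -0.11 without the library of shRNA A, where it reversed, to 0.24 without that of shRNA B. No paired analysis was possible, because there is 1 control library and no label pairs it with a Tead4 shRNA library. The likelihood-ratio test with dispersion over all 3 libraries called 0 mitotic and 0 transport kinesins as higher, and 0 as higher and 0 as lower among the remaining kinesins, with 540 genes at an unadjusted p under 0.05; its adjusted p was 0.885 for the 14 members otherwise called. DESeq2 called 448 genes as higher and 374 as lower, against 773 and 649 with edgeR. It called 10 mitotic and 0 transport kinesins as higher, and 0 as higher and 0 as lower among the remaining kinesins.

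In wider classes, Kif2a and Kif24 were moved to the mitotic kinesins and Kif21a and Kif21b to the transport kinesins. There, 1 transport kinesin and 0 of the remaining kinesins passed as lower. The mitotic median with shRNA B was then 2.18, the medians of the remaining kinesins 0.19 and 0.61, and the mitotic shares of kinesin reads 10.1% and 10.5% with shRNAs A and B, against 5.31% with the control shRNA. With a minimum of 100 reads the medians of the remaining kinesins were 0.36 and 0.0052. Without the members set down as having a copy (Kifc1, Kif22 and Kif4) the mitotic shares were 5.49% and 5.68%, against 1.09%. A further alternative, chosen after seeing the data, left out members that share 13.8% (Kif4) or more of their transcript windows. These were Kif20a, Kif4, Kifc1, Kif3c, Kifc3, Kif2a and the Kif7 identifier with more reads. Without them the mitotic shares were 4.45% and 4.396%, against 1.0%, and the remaining kinesins' median with shRNA B was 0.29. At least 2-fold higher in both libraries were 2 transport kinesins and 1 of the remaining kinesins under upper-quartile scaling and total counts. At a fold of 1.5 these were also 2 and 1, and at a fold of 3 they were 0 transport kinesins higher and 0 of the remaining kinesins lower. No scaling moved the median of all genes by over 0.1. Of the values that answer a comparison, 136 stayed within a set tolerance and 32 moved. Counts were taken as the same if equal, also at 0, or within 1.5-fold. The 11 mitotic calls therefore counted as the same at 8, without members that share transcript windows. Medians had to stay within the standard deviation of the medians for the 2 Tead4 shRNAs, and shares within their exact interval.

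Low reads limit Kif17, Kif19a, Kif27 and Kif5a, and 1 control library limits every comparison.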
